A study of Rattus norvegicus with 144 samples.

Results

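The adrenal response to the high dose of AMG B after 14 days of dosing was described from 8 arrays of a series of 144, by 14217 genes. Treated glands were 4 adrenals from male Sprague Dawley rats (animals 33, 34, 35 and 36) given AMG B by mouth at 60 mg/kg every day, and the controls were 4 adrenals of the same age range and day from rats given 0 mg/kg (animals 25, 26, 27 and 28). Arrays were chosen by their labels for tissue, compound, dose, day and animal number, and animals were 8 to 10 weeks old. AMG B is known here only by its code name, and the series' design text calls its pharmacology antiangiogenic. The same study also took adrenals at 3 mg/kg and on days 1 and 4, and took pancreas and liver from the same animals on day 14. All these arrays stand in 1 table of 108 arrays. The values are deposited scores: each probe set was standardised, so that 0 is its mean over all arrays that carry it and 1 unit its standard deviation. A difference of scores therefore states no fold change and no quantity of RNA, and the score of one gene cannot be set against that of another as an amount. Where genes are ranked by size or scores are averaged over a list, the unit is each gene's own SD. Such a ranking is not one of fold changes.

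The adrenal gland joins a cortex, which makes steroid hormones from cholesterol, to a medulla of chromaffin cells, which makes catecholamines. Cortical cells lie along thin-walled, fenestrated sinusoids whose endothelium depends on signalling by vascular endothelial growth factor (VEGF). They take up cholesterol from lipoproteins and also make it, and the genes of that synthesis are raised by the transcription factor SREBP2 when membrane sterol is low. Genes of glucose uptake and glycolysis are raised by hypoxia-inducible factors when oxygen is short.

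The tissue label held: 10 of 10 measured marker genes of cortex and medulla, among them Star, Cyp11a1, Cyp21a1, Th and Chga, had a higher mean in control adrenals than in control pancreas or liver. Across genes, arrays of animals 33, 34 and 36 correlated with each other at 0.748 to 0.795, and control arrays among themselves at 0.763 to 0.832. Animal 35 correlated with the other treated arrays at only 0.535 to 0.550, and with controls at 0.454 to 0.490, against 0.646 to 0.757 for the other treated arrays. The SD of its scores was 1.17, against 0.958 to 1.03 in the other treated animals and 0.900 to 0.941 in controls. It lay more than 2 units above all of the other 7 arrays in 281 genes and more than 2 below in 19, where any other animal did so in 2 to 11 and in 0 to 8 genes. Where the call of a named gene ends without this animal, both values are given. The 4 animals per group limit the precision. In the main fits the p-values rest on a spread between animals pooled over all arrays of the fit, not over these 8 alone. In whole glands fewer cells of a type cannot be told from less RNA per cell.

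Of 14217 genes, 1295 (9.11%) differed between 60 mg/kg and control adrenals in limma's moderated test at an adjusted p under 0.05. Of these, 642 (4.52%) were higher and 653 (4.59%) lower, and the median difference over all genes was 0.000355. Without animal 35 the count was 1053 (7.41%), with 512 (3.6%) higher and 541 (3.81%) lower. Both fits shared 832 genes, all with the same direction, 463 genes were called only with animal 35 and 221 only without it. The spread was estimated over 48 adrenal arrays. From the 8 compared arrays alone, 158 genes passed (1.11%), and 320 (2.25%) when animal 35 was also left out. Of 116 genes examined singly that passed, 29 passed from the 8 arrays alone, so most single calls rest on the shared spread.

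Most measured genes of cholesterol synthesis rose. Of 19 measured genes of the pathway, 16 were higher at 60 mg/kg and 0 lower, with a median difference of 2.04, and the same count, 16, was called without animal 35 (median 2.18). From the 8 compared arrays alone 9 passed. The share of all genes that were higher was 4.52%, and 0.549% from those 8 arrays. The mean score of the 19 genes was 1.25, 2.41, 1.87 and 2.75 in the treated animals and 0.06, 0.14, 0.37 and -0.09 in controls, so the lowest treated gland lay above the highest control.

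Fdps, which makes farnesyl diphosphate, and Lss, which closes squalene epoxide into lanosterol, had the largest rises of the pathway, and their promoters are printed below because both hold the CCAAT box, an element bound by the factor NF-Y that often lies beside sterol response elements. Capitals mark CCAAT or its reverse complement ATTGG. The windows are 300 bases around the annotated start, 5′ to 3′ on the gene's strand, from RefSeq (GRCr8): chr2:176804767-176805066, minus strand, for Fdps, and chr20:12118181-12118480, minus strand, for Lss.
Fdps: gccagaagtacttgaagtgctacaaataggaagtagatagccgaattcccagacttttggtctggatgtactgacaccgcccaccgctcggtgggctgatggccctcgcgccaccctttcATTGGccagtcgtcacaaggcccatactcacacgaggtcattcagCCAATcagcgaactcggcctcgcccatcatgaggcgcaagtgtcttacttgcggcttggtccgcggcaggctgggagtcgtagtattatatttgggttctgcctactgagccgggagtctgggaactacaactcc
Lss: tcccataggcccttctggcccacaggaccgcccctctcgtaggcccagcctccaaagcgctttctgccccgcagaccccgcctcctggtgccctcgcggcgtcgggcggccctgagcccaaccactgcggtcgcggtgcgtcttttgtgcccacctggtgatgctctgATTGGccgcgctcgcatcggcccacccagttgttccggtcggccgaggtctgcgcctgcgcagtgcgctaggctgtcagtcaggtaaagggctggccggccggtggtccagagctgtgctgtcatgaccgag

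A promoter was at hand for 16 of the 19 genes, and CCAAT was found on either strand in 13 of them (81.2%), against 10363 of all 27457 promoters of that length (37.7%) and 4377 of 11733 for measured genes (37.3%). It was found in 11 of 13 promoters of the genes that rose, and in those of Insig1 and Srebf2, which did not pass the test. The sterol element TCACNCCAC was searched first and matched 0 of the 16 windows, against 310 of all promoters (1.13%). CCAAT was chosen after that. A match describes letters in a window and is not evidence of binding.

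Fdps scored 2.65, 2.96, 3.61 and 5.07 in animals 33 to 36, against -0.22, -0.39, -0.09 and -0.36 in controls 25 to 28. The groups were far apart, animal 36 was highest, and the difference was 3.84 ± 0.50 (SE, adjusted p = 2.4e-06; 3.82 without animal 35). Lss scored 3.01, 5.58, 2.33 and 3.86 in treated glands and -0.01, 0.31, 0.59 and 0.05 in controls, a difference of 3.46 ± 0.49 (adjusted p = 1.0e-05), with animal 35 the lowest of the treated. Sqle, the rate-limiting squalene epoxidase, scored 2.13, 3.55, 3.08 and 5.38 at 60 mg/kg and 0.23, 0.33, 0.62 and 0.27 in controls (difference 3.17 ± 0.48, adjusted p = 2.0e-05). Every treated gland again exceeded every control, with animal 36 highest. Cyp51, the lanosterol demethylase, differed by 2.89 ± 0.52 (adjusted p = 2.2e-04) with treated values from 2.13 to 3.63, against -0.42 to 0.36 in controls.

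The earliest measured steps rose too. Acat2, which joins acetyl-CoA units, differed by 1.90 ± 0.33 (adjusted p = 1.4e-04), the mevalonate kinase Mvk by 2.08 ± 0.31 and phosphomevalonate kinase Pmvk by 2.15 ± 0.30, each with no overlap between the groups, as for 5.83% of all genes with higher treated glands and 6.53% with lower ones. Mvd, the next decarboxylase, scored 0.99, 4.47, 4.48 and 4.30 in treated glands, against -0.0041, 0.0032, 0.65 and 0.13 in controls. Animal 33 was close to the controls while the other 3 were alike, and the difference was 3.36 ± 0.69 (adjusted p = 0.0012). Idi1, the isomerase that follows, differed by 2.23 ± 0.55 (adjusted p = 0.0071), and the acetoacetyl-CoA synthetase Aacs, which feeds the pathway from ketone bodies and was not in the list, by 3.21 ± 0.70 (adjusted p = 0.0022), also with animal 33 apart at 1.52.

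Later steps also rose. Tm7sf2, a sterol reductase, scored 0.47, 0.74, 0.07 and 0.64 at 60 mg/kg and -0.77, -0.86, -0.90 and -0.87 in controls. Ebp, the sterol isomerase, scored -0.21, -0.03, -0.26 and -0.05 in treated glands, against -1.07, -1.06, -1.05 and -1.05 in controls. Their differences, 1.33 ± 0.12 and 0.92 ± 0.08, had adjusted p-values of 3.6e-10 and 4.6e-11, among the smallest of all genes. Msmo1, Hsd17b7, Sc5d and Nsdhl, which work on the sterol ring and its methyl groups, differed by 2.38, 2.04, 1.18 and 0.43, and Nsdhl lost its call without animal 36 (adjusted p = 0.075). Fdft1, the squalene synthase, scored 0.35, 2.69, 0.80 and 3.49 against 0.02, -0.13, 0.16 and -0.12 in controls, with animals 34 and 36 high, and lost its call without animal 36 (adjusted p = 0.088).

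The other 3 members did not pass: Insig1, which holds SREBP in the endoplasmic reticulum (1.67 ± 0.67, adjusted p = 0.11), Srebf2, which encodes SREBP2 (0.12, adjusted p = 0.91, with its 2 probe sets of opposite sign), and Dhcr7, the last reductase (0.09, adjusted p = 0.88). Insig1 was spread in both groups, 0.68, 3.11, 1.80 and 2.52 at 60 mg/kg and -0.09, 1.13, 1.09 and -0.73 in controls. In the list for sterol uptake, storage and export, 4 of 16 genes were higher and 1 lower (median 0.03), where 4.52% and 4.59% of all genes were. Lrp8, a receptor for apolipoprotein E, differed by 1.71 ± 0.38 (adjusted p = 0.0026), the sterol carrier Stard4 by 1.57 ± 0.43 (adjusted p = 0.015, lost without animal 28 or 34, up to 0.098) and Scarb1, the HDL receptor through which rodent adrenals take up cholesterol esters, by 0.55 ± 0.17 (adjusted p = 0.033; 0.061 without animal 35). Vldlr differed by 0.30 ± 0.10 (adjusted p = 0.042), mainly through animal 33 (0.29 without it). Apoe, abundant in adrenal cortex, fell: it scored -0.48, -0.64, -0.85 and -1.14 in treated glands and 0.04, -0.19, -0.08 and -0.13 in controls (adjusted p = 1.7e-04).

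**Figure D1:**
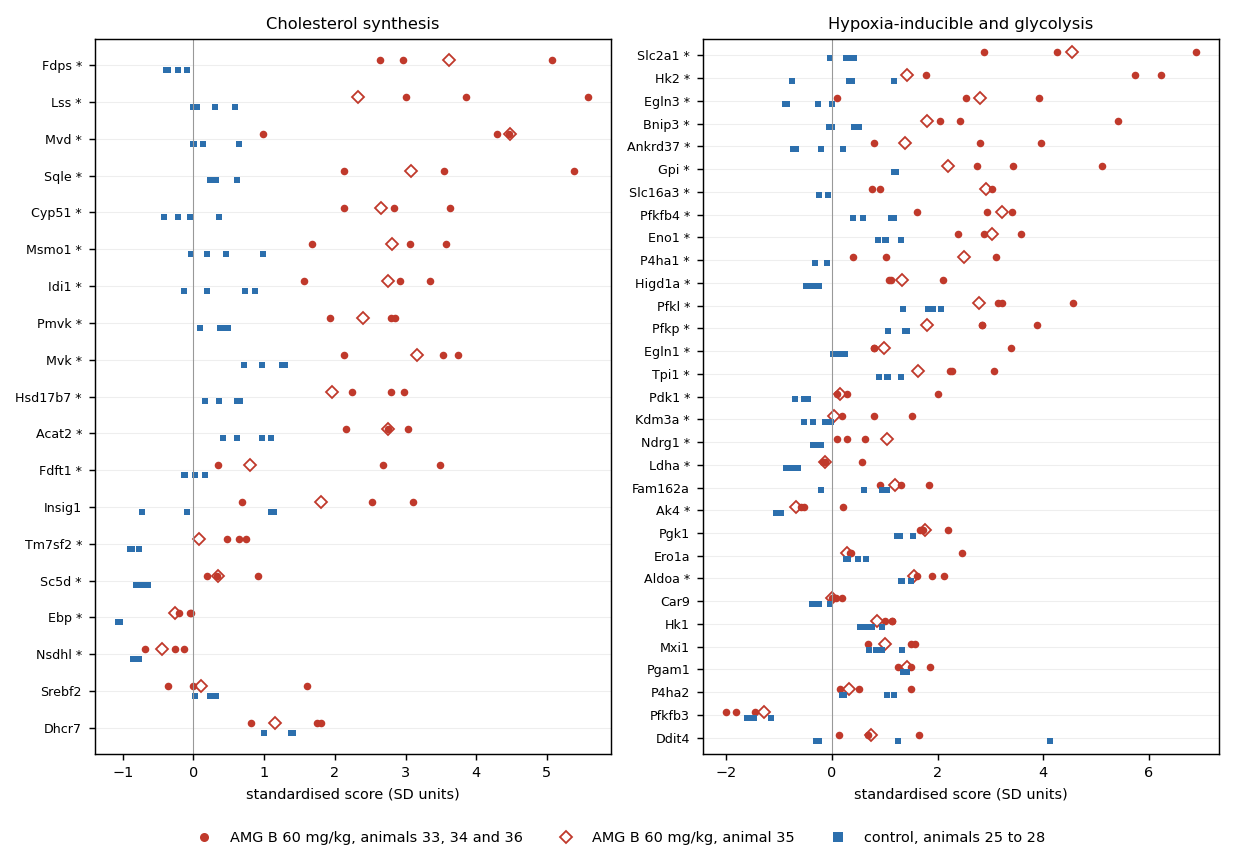
Scores of single adrenals (SD units) for the measured genes of cholesterol synthesis, left, and of the hypoxia-inducible and glycolysis list, right, ordered by difference of means after day 14; filled circles are AMG B 60 mg/kg animals 33, 34 and 36, open diamonds animal 35 and squares controls 25 to 28, and an asterisk marks an adjusted p under 0.05. In 16 of 19 genes on the left and 21 of 31 on the right the treated glands were higher, and animal 35 lay among the other treated animals for most of them.

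Genes that turn cholesterol into steroids were called at a share near that of all genes. Of 19 measured genes of steroid synthesis, 0 were higher and 2 lower (median -0.09), so 10.5% were called, against 9.11% of all genes. Star, which brings cholesterol into mitochondria, scored 1.42, 1.34, 1.40 and 1.54 at 60 mg/kg and 1.28, 1.26, 1.53 and 1.36 in controls, and the groups overlapped fully (difference 0.07 ± 0.09, adjusted p = 0.71). Cyp11a1, which cuts the cholesterol side chain, differed by -0.11 ± 0.08, Hsd3b1 by 0.01 ± 0.10, Cyp21a1 by -0.09 ± 0.09, the corticosterone-forming Cyp11b1 by 0.14 ± 0.10 and the cortical transcription factor Nr5a1 by -0.14 ± 0.22, with adjusted p-values from 0.43 to 0.98. For genes so particular to adrenal, 1 unit largely spans the contrast between tissues, and small changes within the gland weigh little on this scale. Tspo, an outer mitochondrial membrane protein, fell: it scored 1.37, 1.19, 1.05 and 1.12 in treated glands and 1.72, 1.76, 1.57 and 1.74 in controls (difference -0.51 ± 0.10, adjusted p = 8.7e-04). Hsd11b2, which inactivates corticosterone, differed by -0.78 (adjusted p = 0.031), a call lost without animal 35 (0.18).

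Of 18 genes listed for the zona glomerulosa and outer cortex, the aldosterone-making layer, 2 were higher and 1 lower (median -0.19). Without animal 35 there were 0 and 1. Among all genes 4.52% were higher and 4.59% lower, and 3.6% and 3.81% without that animal. Vsnl1, a calcium sensor enriched in that layer, scored 0.57, -0.07, -0.48 and -0.39 in treated glands, against 1.24, 2.62, 1.73 and 0.81 in controls, a difference of -1.69 ± 0.34 (adjusted p = 8.3e-04) with no overlap. Among markers of the layer that did not pass were Dab2 and Agtr1b: Dab2 differed by -0.91 ± 0.33 (adjusted p = 0.080) and Agtr1b, an angiotensin receptor, by -0.60 ± 0.38 (adjusted p = 0.38). The higher calls were the potassium channel Kcnk9 (0.97, adjusted p = 0.048) and the angiotensin receptor Agtr1a (0.17, 0.0060), and neither held without animal 35 (0.059 and 0.052).

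Hypoxia-inducible and glycolysis genes formed the other large group that rose. Of 31 measured, 21 were higher and 0 lower, with a median difference of 1.18, and 21 were also called without animal 35 (median 1.34). From the 8 compared arrays alone 3 passed. The share of all genes that were higher was 4.52%, and 0.549% from those 8 arrays. Mean scores of the list were 2.45, 1.30, 1.37 and 1.45 in the treated animals and 0.39, 0.40, 0.25 and 0.35 in controls. Animal 33 had the highest mean, and all 4 treated animals lay above every control.

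Slc2a1, the basal glucose transporter GLUT1, had the smallest adjusted p of the list, and Bnip3, a mitophagy receptor and direct target of hypoxia-inducible factor 1, was among its larger rises. Their promoters are shown because both hold ACGTG, the core of the hypoxia response element, in capitals on either strand. In Bnip3 the run CACGTG reads the same on both strands and counts as an overlapping pair of matches. The windows are chr5:138002272-138002571, plus strand, and chr1:203154913-203155212, minus strand (RefSeq, GRCr8).
Slc2a1: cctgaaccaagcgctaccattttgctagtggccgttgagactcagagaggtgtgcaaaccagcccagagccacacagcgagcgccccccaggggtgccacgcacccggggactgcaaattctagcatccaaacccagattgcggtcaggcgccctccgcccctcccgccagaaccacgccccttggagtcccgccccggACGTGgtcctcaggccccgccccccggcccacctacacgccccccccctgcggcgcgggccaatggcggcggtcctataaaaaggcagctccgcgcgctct
Bnip3: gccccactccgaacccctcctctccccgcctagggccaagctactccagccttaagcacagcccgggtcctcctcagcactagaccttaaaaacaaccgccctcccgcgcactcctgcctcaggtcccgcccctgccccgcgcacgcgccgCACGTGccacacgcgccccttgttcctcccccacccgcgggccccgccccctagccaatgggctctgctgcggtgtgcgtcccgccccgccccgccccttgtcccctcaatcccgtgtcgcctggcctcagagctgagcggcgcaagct

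ACGTG lay in 16 of 28 promoters of the list (57.1%), against 5418 of all 27457 (19.7%) and 2821 of 11733 for measured genes (24.0%). It was found in 9 of 20 promoters of the genes that rose (45%) and in 7 of 8 of the genes that did not pass (87.5%), so its presence did not separate them.

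Slc2a1 scored 6.89, 2.88, 4.53 and 4.27 in animals 33 to 36 and 0.27, -0.04, 0.42 and 0.34 in controls. The difference was 4.40 ± 0.38 (adjusted p = 1.7e-10; 4.43 without animal 35), and the lowest treated gland was far above the highest control. Hk2, the inducible hexokinase, scored 6.23, 1.78, 1.42 and 5.74 at 60 mg/kg, against 0.38, 0.32, -0.75 and 1.17 in controls (difference 3.51 ± 0.60, adjusted p = 1.2e-04). Animals 33 and 36 were high and animals 34 and 35 only just above the controls. Eno1, an enolase of the main glycolytic path, was even across animals, at 3.57, 2.39, 3.03 and 2.87 in treated glands and 1.30, 1.01, 0.87 and 1.01 in controls (difference 1.92 ± 0.17, adjusted p = 4.2e-10). Its sister enolase Eno2 and the aldolase Aldoc, outside the list, differed by 3.63 ± 0.61 and 3.22 ± 0.50; in Eno2 animal 33 stood apart at 8.72, while the other treated glands scored 2.49, 3.25 and 2.82.

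Bnip3 scored 5.41, 2.43, 1.81 and 2.05 in treated glands and -0.0009, 0.51, -0.06 and 0.42 in controls, a difference of 2.71 ± 0.39 (adjusted p = 1.1e-05). Egln3, an oxygen-sensing prolyl hydroxylase that hypoxia induces, scored 3.91, 2.53, 2.80 and 0.10 at 60 mg/kg, with animal 36 near the controls, at -0.85, -0.27, -0.88 and 0.01 (adjusted p = 1.2e-04). Ankrd37 differed by 2.59 ± 0.40, the glucose phosphate isomerase Gpi by 2.17 ± 0.30, the lactate exporter Slc16a3 by 2.02 ± 0.33, the collagen prolyl hydroxylase P4ha1 by 1.90 ± 0.31 and the mitochondrial protein Higd1a by 1.77 ± 0.25. In each of these 5 the groups did not overlap, and adjusted p-values ran from 4.4e-06 to 5.9e-05. Gys1, the glycogen synthase of muscle and other tissues, scored 7.01, 3.42, 2.62 and 2.87 in treated glands and 1.00, 0.94, 1.22 and 1.17 in controls (difference 2.90 ± 0.45, adjusted p = 3.3e-05), highest in animal 33 like much of the list. Vegfa, itself a hypoxia-inducible gene, scored 2.87, 1.63, 1.04 and 1.94 against 0.80, 1.42, 1.20 and 1.07 in controls, overlapped and did not pass (difference 0.74 ± 0.34, adjusted p = 0.17).

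Several endothelial genes fell, among them both Tie receptors. Tek encodes Tie2, the angiopoietin receptor of endothelium: it scored -1.39, -1.62, -1.15 and -1.83 in treated glands and 1.51, 1.34, 1.10 and 0.86 in controls, a difference of -2.70 ± 0.24 (adjusted p = 3.3e-10; -2.81 without animal 35). All 4 treated animals lay below 0 and all controls above. Its partner Tie1 scored -1.38, -1.52, 0.17 and -1.69 at 60 mg/kg, against 1.18, 2.52, 1.16 and 1.67 in controls (difference -2.74 ± 0.46, adjusted p = 1.0e-04), with animal 35 highest of the treated. These were the only members of the angiopoietin list of 6 that passed, where 9.11% of all genes passed.

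Of 25 measured endothelial genes, 0 were higher and 5 lower with all animals (median -0.34), and 0 and 8 without animal 35 (median -0.76). The share of all genes that were lower was 4.59%, and 3.81% without that animal. The list mean was -0.02, 0.05, 1.36 and -0.25 in treated glands and 0.76, 0.71, 0.69 and 0.74 in controls. Animals 33, 34 and 36 lay below every control and animal 35 above every control. Emcn, the sinusoidal and venous sialomucin endomucin, scored -0.13, -0.11, 1.20 and -0.04 at 60 mg/kg and 1.63, 2.21, 1.79 and 1.55 in controls (difference -1.57 ± 0.21, adjusted p = 4.0e-06; -1.89 and 3.1e-09 without animal 35). Mmrn2, an endothelial matrix protein, differed by -1.87 ± 0.33 (adjusted p = 1.5e-04) and Ehd3, a membrane-trafficking protein, by -1.79 ± 0.40 (adjusted p = 0.0027). Plvap, the protein of the diaphragms that span endothelial fenestrae, scored -0.10, -0.08, 0.61 and -0.32 in treated glands, against 0.37, 0.85, 0.88 and 1.26 in controls (difference -0.81 ± 0.19, adjusted p = 0.0041), and only animal 35 reached the controls. Clec14a differed by -1.01 ± 0.31 (adjusted p = 0.033) and was lost without animal 35 (0.065).

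The adhesion molecule Esam and the TGF-beta co-receptor Eng were called only without animal 35. Esam scored 0.06, -0.02, 1.96 and -0.14 at 60 mg/kg and 0.81, 1.05, 0.86 and 0.87 in controls, a difference of -0.93 without that animal (adjusted p = 2.5e-04) and -0.43 with it (0.32). Eng differed by -0.75 without it (0.0011) and -0.11 with it (0.89). The general endothelial marker Pecam1 passed in neither fit: it scored -0.02, 0.04, 2.92 and -0.06 in treated glands and 0.07, 0.24, 0.29 and 0.30 in controls. Apart from the high value of animal 35, those scores lay just under the controls.

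Of the VEGF receptors, Kdr scored -0.93, -0.92, -1.17 and -0.96 at 60 mg/kg and -1.03, -0.93, -0.89 and -0.98 in controls and did not pass (difference -0.04 ± 0.08, adjusted p = 0.85). Its control mean was lower in adrenal (-0.96) than in pancreas (0.23) or liver (1.65). Flt1 differed by 0.04 ± 0.27 (adjusted p = 0.97, with 2 of 3 probe sets of the same sign) and Flt4 by 0.63 ± 0.41 (adjusted p = 0.39). The co-receptor Nrp1 scored -0.60, -0.49, 3.49 and -1.04 in treated glands, against 1.01, 1.87, 1.39 and 0.57 in controls: it differed by -1.92 without animal 35 (adjusted p = 3.8e-04), and with that animal, at the top of all 8, by -0.87 (0.35). The ligand Vegfb was higher by 0.45 ± 0.14 (adjusted p = 0.035, up to 0.16 when 1 of animals 25, 26, 27, 33 and 36 was left out). It was the only one of 10 VEGF ligands and receptors called with all animals, where 9.11% of all genes were.

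Among 20 genes of tip cells or known to respond to VEGF, 4 were higher and 2 lower, against 4.52% and 4.59% of all genes. Fam167b, a gene of endothelium with little known function, scored -1.10, -0.96, -0.89 and -1.16 at 60 mg/kg and 1.98, 1.49, 1.65 and 0.93 in controls (difference -2.54 ± 0.21, adjusted p = 4.6e-11), with tight groups (-2.58 without animal 35). Rgcc, a cell cycle regulator, fell by 1.15 (adjusted p = 0.022), a call lost without animal 25, 34 or 36 (up to 0.091). Esm1, the tip-cell proteoglycan endocan, scored 1.53, 1.48, 9.44 and 3.47 in treated glands, against 0.13, 0.59, 0.88 and 0.87 in controls. Its difference of 3.36 ± 0.78 (adjusted p = 0.0039) was 1.54 ± 0.31 without animal 35 (8.5e-04). Apln, the ligand apelin, and Plaur, the urokinase receptor, were carried by animal 35, at 6.36 and 4.78: their differences of 2.33 and 2.32 were 0.83 and 0.97 without it (adjusted p = 0.35 and 0.30). Notch4 was higher by 0.85 ± 0.28 (adjusted p = 0.045, with 2 of 3 probe sets of the same sign; 0.059 without animal 35).

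Other genes that fell beside these were named by the size of their change. Tmem204, a junctional membrane protein of endothelium, scored -1.24, -0.63, -0.36 and -0.53 in treated glands and 2.13, 2.68, 1.99 and 1.57 in controls (difference -2.78 ± 0.32, adjusted p = 2.9e-07). Exoc3l2, which is known to bear on VEGF receptor trafficking, scored -1.32, -1.14, -0.46 and -0.97 at 60 mg/kg, against 1.40, 1.65, 1.73 and 0.94 in controls (difference -2.40 ± 0.28, adjusted p = 3.3e-07). In both, every treated gland lay below every control. Of 16 pericyte and smooth muscle genes, 2 were higher and 1 lower, against 4.52% and 4.59% of all genes. Without animal 35 they were 0 and 1, against 3.6% and 3.81%. Rgs5, the pericyte marker, scored -0.96, -0.79, 0.25 and -0.70 in treated glands and 1.93, 0.45, 1.02 and 1.03 in controls (difference -1.66 ± 0.33, adjusted p = 9.5e-04), while Acta2, smooth muscle actin, differed by 1.56 ± 0.37 (adjusted p = 0.0049; 0.051 without animal 35) and Des, the muscle filament desmin, by 1.31 ± 0.41 (0.035; 0.28 without animal 35). Col18a1, the basement membrane collagen that yields endostatin, was higher by 0.37 ± 0.07 (adjusted p = 5.8e-04). It was the only one of 12 basement membrane genes called with all animals. Without animal 35, Sparc of that list was called lower (-0.94, adjusted p = 0.0087), and with it did not pass (-0.63, 0.11).

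**Figure D2:**
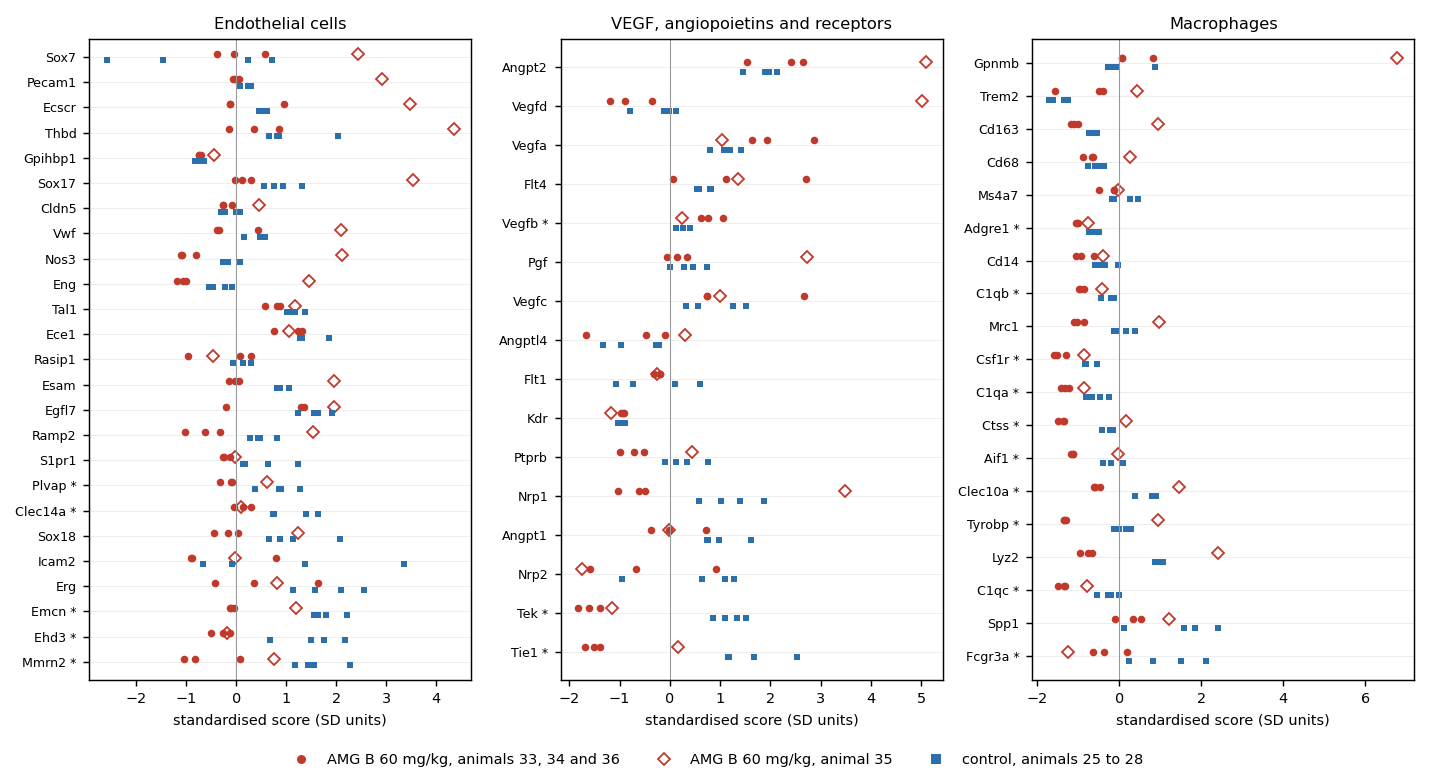
Scores of single adrenals (SD units) for measured endothelial genes, for VEGF, angiopoietin and receptor genes, and for macrophage genes, ordered by difference of means; symbols are as in the plot of cholesterol and hypoxia genes (circles, AMG B 60 mg/kg animals 33, 34 and 36; diamonds, animal 35; squares, controls), and an asterisk marks an adjusted p under 0.05. Tek and Tie1 lie lowest against controls, and animal 35 lies above all others for 13 of 25 endothelial and 9 of 19 macrophage genes.

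Many macrophage genes were low in 3 of the 4 treated glands. Of 19 measured, 0 were higher and 10 lower (median -0.64), and 0 and 13 without animal 35 (median -0.79). Among all genes 4.59% were lower, and 3.81% without that animal. From the 8 compared arrays, 0 passed with animal 35 and 11 without it. Members that did not fall with all animals were Cd68 (0.07), Cd163 (0.08), Gpnmb (1.84) and Trem2 (0.98), and none of them passed. Without animal 35, Cd163 was lower in limma's test (-0.43, adjusted p = 0.012) and Cd68 did not pass (-0.18). Gpnmb and Trem2 stayed above 0 without it (0.22 and 0.66) and did not pass. The list mean was -0.79, -0.87, 0.54 and -0.83 in treated glands and 0.13, -0.09, -0.10 and -0.17 in controls, and animal 35 was the highest of all 8. C1qa and C1qc, chains of complement C1q made by resident macrophages, scored -1.23, -1.42, -0.85 and -1.31 and -1.33, -1.49, -0.78 and -1.35 at 60 mg/kg, against -0.25, -0.66, -0.47 and -0.82 and -0.0012, -0.29, -0.20 and -0.55 in controls. Their differences were -0.65 ± 0.10 (adjusted p = 5.1e-05) and -0.98 ± 0.16 (4.1e-05), and animal 35 stayed below the control mean in both.

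Csf1r, the receptor that macrophages need to survive, differed by -0.64 ± 0.13 (adjusted p = 9.9e-04) and the Fc receptor Fcgr3a by -1.69 ± 0.38 (adjusted p = 0.0026). The mannose receptor Mrc1 and lysozyme Lyz2 were called only without animal 35. Mrc1 scored -1.11, -1.02, 0.97 and -0.87 in treated glands and 0.15, 0.39, -0.13 and -0.09 in controls (difference -1.08 without animal 35, adjusted p = 3.1e-07; -0.59 with it, 0.10). Lyz2 differed by -1.73 without that animal (8.7e-07) and -0.93 with it (0.12). Tyrobp and Clec10a, an adaptor and a lectin of myeloid cells, differed by -0.83 and -0.79 with all animals (adjusted p = 0.040 and 0.034) and by -1.40 and -1.30 without animal 35. With it, both calls ended when most other single animals were left out (adjusted p up to 0.17 and 0.13).

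A few genes of antigen presentation fell. Of 23 interferon-inducible and antigen presentation genes, 0 were higher and 4 lower (median -0.44), where 4.52% and 4.59% of all genes were. Without animal 35 there were 0 and 3, against 3.6% and 3.81%. Cd74, the invariant chain of class II molecules, scored -1.10, -1.18, -0.89 and -1.07 at 60 mg/kg and 0.73, 0.44, 0.49 and 0.07 in controls (difference -1.49 ± 0.16, adjusted p = 2.2e-08). RT1-Da, a rat class II chain, scored -0.97, -1.03, -0.80 and -0.97 in treated glands, against 0.49, 0.39, 0.31 and -0.05 in controls (difference -1.22 ± 0.15, adjusted p = 7.7e-07). For both, the treated glands were tightly grouped below every control. The immunoproteasome genes Psmb9 and Psmb8 differed by -1.10 ± 0.28 and -0.89 ± 0.28 (adjusted p = 0.0089 and 0.038), and both calls were lost without animal 35 (0.057 and 0.18). Of 15 lymphocyte genes 2 were lower, by little, where 4.59% of all genes were. The T cell chain Cd3d differed by -0.16 ± 0.05 (adjusted p = 0.020, and 0.053 without animal 35).

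Chromaffin cell genes set animal 35 apart. Of 22 measured, 2 were higher and 0 lower (median -0.18, and 0.08 without animal 35), where 4.52% and 4.59% of all genes were. Animal 35 was the lowest of all 8 glands in 16 of the 22. Th, tyrosine hydroxylase, the first enzyme of catecholamine synthesis, scored 2.69, 2.08, 0.23 and 2.72 at 60 mg/kg and 1.69, 1.30, 1.67 and 1.49 in controls. With all animals it differed by 0.39 ± 0.34 (adjusted p = 0.56), and without animal 35 by 0.96 ± 0.28 (0.029). Pnmt, which makes adrenaline, scored 2.40, 1.77, -0.31 and 3.22 in treated glands, against 1.23, 1.23, 1.79 and 1.28 in controls, and did not pass (adjusted p = 0.70; 0.11 without animal 35). Dbh, Chga and Chgb also had their lowest value in animal 35, at 0.92, -0.0043 and 0.38, where the controls spanned 1.66 to 2.51, 1.18 to 1.62 and 1.35 to 1.63. The only calls were Penk, the enkephalin precursor, and Ret, the receptor tyrosine kinase for GDNF-family factors, at 5.50 and 2.43 in animal 35. Without it they differed by 0.38 (adjusted p = 0.22) and 0.38 (3.7e-05). How much medulla each extract held was not measured, and its part in these values was not tested.

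Animal 35 carried a large set of genes alone. Of 22 genes of matrix and fibroblasts, it was the highest of the 8 glands in 21, with a list mean of 4.07, against -0.46, -0.39 and -0.34 in the other treated animals and -0.25 to -0.19 in controls. By limma's test 0 genes of that list were called with all animals, where 9.11% of all genes were, or 7.41% without animal 35. Without animal 35, 2 were lower: Loxl1, a lysyl oxidase, differed by -1.04 (adjusted p = 0.010; 0.44 and 0.76 with it) and Bgn, the proteoglycan biglycan, by -0.89 (0.0035; 0.73 and 0.58 with it). Col1a1, the main fibrillar collagen, scored -0.54, -0.65, 4.65 and -0.61 at 60 mg/kg and -0.46, -0.28, -0.45 and -0.40 in controls, and Col3a1 -1.33, -1.20, 4.68 and -1.35 in treated glands, against -1.09 to -0.67 in controls. The list of neutrophil genes and inflammatory mediators averaged 3.47 in animal 35, between -0.44 and -0.23 in the other treated glands and between -0.28 and -0.17 in controls. It was also the highest gland for basement membrane (2.05), pericyte and smooth muscle (1.90), adipocyte (1.13) and cell cycle (1.78) lists. The part of other tissue or cells in these values was not tested.

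Genes with very high scores in this gland alone were Timp1, the inhibitor of matrix metalloproteinases, at 10.77, Testin at 10.71, the decoy receptor Il1r2 at 9.70, the matrix glycoprotein tenascin C (Tnc) at 9.59 and the neutrophil calgranulin S100a9 at 9.40. In these 5 genes the other 7 glands scored between -0.80 and 0.89. S100a8, the partner of S100a9, was called with all animals (difference 2.43 ± 0.75, adjusted p = 0.033) and not without animal 35 (0.21), and Il1r2 likewise (0.032 and 0.11). Very low in it were Wdr62 at -5.77, Prkcz at -5.36, Arr3 at -5.75 and Psg19 at -4.47. None of these values is a test, since the animal was singled out for being unlike the others.

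In other tissues animal 35 lay outside its group for some of these lists and within it for others. In its pancreas the matrix list averaged 3.33, against 0.38 to 2.61 in the other treated animals and 0.53 to 1.50 in controls. In its liver the neutrophil list averaged 1.22, against 0.24 to 0.45 in the other treated livers and 0.18 to 0.43 in control livers. The cell cycle list averaged 0.89 there, against -0.37 to -0.21 in the other treated livers and -0.42 to -0.18 in control livers. In its pancreas that list averaged 1.98 (other treated animals 0.30 to 1.59, controls 0.10 to 0.34). The basement membrane list averaged 1.98 in its pancreas (other treated animals 0.61 to 1.32, controls 0.73 to 1.78). Its liver matrix list, at -0.15, was the highest of the treated livers but below all controls (-0.14 to -0.10). In pancreas it lay among the other treated animals for the neutrophil list, at 1.56 (other treated animals 0.01 to 1.71), the pericyte and smooth muscle list, at 0.44 (other treated animals -0.54 to 2.56), and the endothelial list, at -0.29 (other treated animals -0.58 to 1.23).

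**Figure D3:**
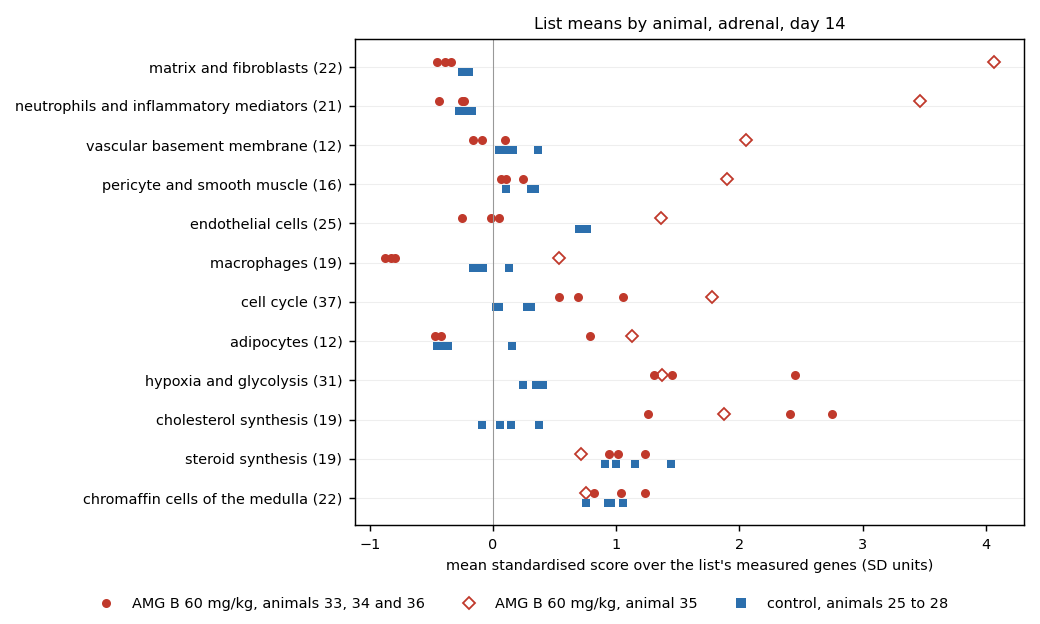
Mean score (SD units) of 12 gene lists in each adrenal on day 14, with the number of measured genes in brackets; circles are AMG B 60 mg/kg animals 33, 34 and 36, diamonds animal 35 and squares controls. Animal 35 stands at 4.07 for matrix and 3.47 for neutrophil genes, far to the right of all others, but lies among the other treated animals for hypoxia and cholesterol synthesis.

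Some proliferation genes were higher in treated glands, in part through animal 35. Of 37 cell cycle genes, 11 were higher and 0 lower (median 0.79), and 5 and 0 without animal 35 (median 0.56). The share of all genes that were higher was 4.52%, and 3.6% without animal 35. Bub1b, a spindle checkpoint kinase, scored 0.45, 0.63, 1.12 and 1.02 at 60 mg/kg and -1.75, -0.95, -1.76 and -1.61 in controls (difference 2.32 ± 0.53, adjusted p = 0.0034), and animal 35 did not decide it (0.012 without it). Cyclin A2 (Ccna2) scored 1.54, 0.99, 4.44 and 2.14 in treated glands, against 0.01, -0.19, -0.23 and 0.56 in controls (difference 2.24 ± 0.54, adjusted p = 0.0053; 0.053 without animal 35). The mitotic kinase Cdk1 and topoisomerase Top2a differed by 2.09 and 1.10 (adjusted p = 0.015 and 0.023), neither of them called without animal 35 (0.14 and 0.13).

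Some stress genes rose. Of 29 genes of ATF4 signalling and the endoplasmic reticulum, 11 were higher and 0 lower, and the same numbers were called without animal 35. Leaving out 1 of the 8 animals gave 4 to 12, and from the 8 compared arrays alone 0 passed. The median over the list was 0.24, and the share of all genes that were higher was 4.52%, or 3.6% without animal 35. The chaperone calnexin (Canx) scored 0.58, 0.40, 0.10 and 0.67 at 60 mg/kg and -0.30, -0.43, -0.11 and -0.27 in controls (difference 0.72 ± 0.13, adjusted p = 1.7e-04). Pdia6, a disulfide isomerase, differed by 0.93 ± 0.21 (adjusted p = 0.0034), Atf4 by 0.74 ± 0.24 (0.038) and Hspa5, the chaperone BiP, by 0.65 ± 0.21 (0.040), and the last 2 were lost when any of 5 single animals was left out (up to 0.14 and 0.14). Of 13 genes of p53 and cell death 4 were higher: Gdf15, a secreted stress factor, scored 4.57, 3.58, 2.27 and 3.99 in treated glands, against 0.36, 0.41, 0.56 and 2.43 in controls with animal 28 apart (difference 2.66 ± 0.66, adjusted p = 0.0066). Cdkn1a, the inhibitor p21, differed by 0.61 ± 0.14 (0.0049) and Mdm2 by 0.76 ± 0.24 (0.038; 0.15 without animal 35).

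Hmox1, heme oxygenase 1, scored 8.92, 0.69, 5.90 and 2.25 at 60 mg/kg and -0.17, -0.23, -0.41 and 0.05 in controls, and the difference of 4.63 ± 0.75 (adjusted p = 5.6e-05) came with a wide spread, animal 34 being lowest. With the glutathione enzyme subunit Gclm (0.33 ± 0.08, adjusted p = 0.0038) it made up the 2 of 22 NRF2-linked genes that were higher, where 4.52% of all genes were higher and 4.59% lower. Gstp1, a glutathione transferase, was 1 of 3 that fell, scoring 0.33, 0.50, 0.81 and 0.48 in treated glands, against 1.02, 1.07, 1.06 and 1.26 in controls (adjusted p = 0.0073). The metallothioneins Mt1 and Mt2A differed by 1.75 ± 0.43 and 1.00 ± 0.19 (adjusted p = 0.0061 and 4.0e-04) and were the only members called of 15 glucocorticoid-responsive genes. Of 16 clock genes 4 were higher, and 1 without animal 35, against 4.52% and 3.6% of all genes. Bhlhe40, a clock repressor that hypoxia also induces, scored 3.30, 2.34, 3.91 and 2.45 at 60 mg/kg and 0.82, 1.29, 0.82 and 0.62 in controls (difference 2.11 ± 0.33, adjusted p = 3.4e-05), and was called in both fits. Bmal1, Clock and Cry1 differed by 1.26, 0.73 and 0.86 with all animals (adjusted p = 0.037, 0.018 and 0.035), and their calls ended without animal 35 (0.10, 0.089 and 0.18). No time of death is given in the sources used here.

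Some genes of mitochondrial oxidation fell. Of 22 genes of fatty acid oxidation and ketone bodies, 0 were higher and 4 lower (median -0.39), and 2 were lower without animal 35. Over all genes 4.59% were lower, and 3.81% without animal 35. From the 8 compared arrays alone, 0 genes of this list or of the respiratory chain list passed. Hadha, a subunit of the trifunctional protein, differed by -0.90 ± 0.22 (adjusted p = 0.0050, with 2 of 3 probe sets of the same sign) and Decr1 by -1.39 ± 0.44 (0.036; 0.051 without animal 35). Of 27 respiratory chain genes 3 were lower: Atp5f1a, a subunit of ATP synthase, scored 0.89, 1.30, 0.74 and 0.90 at 60 mg/kg and 2.18, 1.87, 1.61 and 2.05 in controls (difference -0.97 ± 0.23, adjusted p = 0.0043), and the succinate dehydrogenase subunit Sdha differed by -0.82 ± 0.20 (0.0054). The third, Ndufv1 of complex I, differed by -0.89 (0.020; 0.052 without animal 35). Acly, the ATP citrate lyase that supplies acetyl-CoA to lipid synthesis, was the only gene of 19 for fatty acid synthesis and desaturation that rose (difference 1.07 ± 0.24, adjusted p = 0.0026). The desaturase Fads2 of the same list was lower by 1.04 (adjusted p = 0.023; 0.12 without animal 35).

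Some of the largest single rises in score, in SD units of each gene, lay outside these lists. Ropn1l, a ropporin-like protein best known from sperm flagella, scored 2.85, 5.48, 4.44 and 4.37 at 60 mg/kg and -0.56, -0.74, -0.54 and -0.53 in controls (difference 4.88 ± 0.39, adjusted p = 4.6e-11). Fabp6, the ileal bile acid binding protein, scored 7.32, 3.44, 3.81 and 3.67 in treated glands, against -0.23, -0.21, -0.25 and 0.01 in controls (difference 4.73 ± 0.59, adjusted p = 1.0e-06), with animal 33 apart. Fabp5, the epidermal fatty acid binding protein, scored 3.58, 4.30, 3.70 and 1.67 at 60 mg/kg and -0.67, -0.45, -0.52 and -0.42 in controls (difference 3.83 ± 0.31, adjusted p = 4.6e-11). In all 3 genes the groups were separated by more than 2 units, and without animal 35 the differences were 4.82, 4.98 and 3.70. Svs5, a seminal vesicle secretory protein, differed by 3.74 ± 0.73 (adjusted p = 6.1e-04), the transferrin receptor Tfrc by 3.50 ± 0.61 (1.5e-04) and the kinesin Kif21a by 3.62 ± 0.64 (1.9e-04), of which 2.51 remained without animal 35. Angptl8, a regulator of lipoprotein lipase, differed by 3.48 ± 0.95 (adjusted p = 0.015), a value carried by animal 33 at 9.98.

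Other large falls were named singly by the size of their change. Ivd, isovaleryl-CoA dehydrogenase of leucine breakdown, scored -1.17, -0.56, -1.49 and -1.24 in treated glands and 1.76, 1.68, 1.10 and 1.40 in controls (difference -2.60 ± 0.41, adjusted p = 4.2e-05), and Hibadh, of valine breakdown, -1.39, -0.43, -2.11 and -1.20 in treated glands, against 0.97, 1.32, 1.03 and 1.61 in controls (difference -2.52 ± 0.48, adjusted p = 5.5e-04). For both genes the groups were fully apart. Pdlim2, a cytoskeletal adaptor, scored 0.22, 0.15, 0.34 and -0.17 at 60 mg/kg, against 2.54, 2.39, 2.12 and 3.42 in controls (difference -2.48 ± 0.48, adjusted p = 5.4e-04). The NK cell receptor Klrb1c differed by -2.46 ± 0.60 (0.0066), the calmodulin-like Calml4 by -2.44 ± 0.37 (2.3e-05; -2.96 without animal 35) and Cys1, a ciliary protein, by -2.48 ± 0.51 (0.0012). Eps8l1 differed by -2.60 ± 0.67 (0.0099), but only controls 25 and 26 were high, at 3.55 and 3.70, against 0.16 and 0.12 in controls 27 and 28, and the call was lost without either (adjusted p up to 0.072).

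To ask whether the response depended on dose, the 60 mg/kg glands were also set against the 4 glands given 3 mg/kg on the same day, with the controls left aside. In this contrast 1006 genes (7.08%) passed, 518 (3.64%) higher and 488 (3.43%) lower. Without animal 35 there were 831 (5.85%), 3.07% of all genes higher and 2.77% lower, and from the compared arrays alone 4. Cholesterol synthesis again had 16 of 19 genes higher and hypoxia and glycolysis 23 of 31, with 0 lower in both. Slc2a1 averaged 4.64 ± 1.67 at 60 mg/kg and 0.56 ± 0.38 at 3 mg/kg (SD, n = 4 each), a difference of 4.08 in limma's test (adjusted p = 1.5e-09). The largest rises were Hmox1 (4.74, adjusted p = 5.5e-05), Fabp6 (4.57, 2.9e-06) and Ropn1l (4.32, 8.7e-10). Tek differed by -1.58 (3.7e-05), Emcn by -0.99 (0.0020) and Fam167b by -1.42 (2.6e-05). Psg19 and Ankrd16 were the largest falls (-2.62 and -2.61); without animal 35 they were -1.63 and -2.59 (adjusted p = 0.076 and 0.0082).

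At 3 mg/kg itself, against the same controls as the high dose, 4 of 14217 genes passed (0.0281%), 1 higher (0.00703%) and 3 lower (0.0211%), and no gene of cholesterol synthesis or of hypoxia and glycolysis. The differences from control at the low and the high dose, which share those controls, were -1.12 and -2.54 for Fam167b, -1.12 and -2.70 for Tek, and -0.57 and -1.57 for Emcn. For Slc2a1 they were 0.31 and 4.40, and for Fdps 0.19 and 3.84. Of these, only Fam167b passed at the low dose (adjusted p = 0.020).

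Gene groups differed in when they passed. After 1 day at 60 mg/kg, 34 genes differed from that day's controls (0.239%, with 0.0633% of all genes higher and 0.176% lower), and after 4 days 150 (1.06%, with 0.309% higher and 0.746% lower). No gene of the hypoxia and glycolysis list passed on either day. Slc2a1 averaged -0.30 ± 0.22, 0.21 ± 0.17 and 4.64 ± 1.67 at 60 mg/kg on days 1, 4 and 14, against -0.39 ± 0.12, -0.03 ± 0.24 and 0.25 ± 0.20 in controls (SD, n = 4 each). Of the cholesterol genes, 0, 3 and 16 of 19 were higher on the 3 days. Fdps averaged 0.66 ± 1.35, 0.97 ± 0.59 and 3.57 ± 1.07 at 60 mg/kg, against 0.61 ± 0.59, -0.30 ± 0.65 and -0.27 ± 0.14 in controls.

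Of 25 endothelial genes, 1, 5 and 5 were lower on days 1, 4 and 14, where 0.176%, 0.746% and 4.59% of all genes were. The gene of day 1 was Emcn. Tek differed from control by -2.09, -1.67 and -2.70 on days 1, 4 and 14 (adjusted p = 1.1e-06, 6.5e-05 and 3.3e-10). Fam167b differed by -1.92, -1.89 and -2.54, Emcn by -1.35, -1.96 and -1.57, Exoc3l2 by -1.84, -1.79 and -2.40 and Cd74 by -0.91, -0.93 and -1.49, each passing on every day. For Pnmt the day 4 glands were higher by 2.16 (adjusted p = 0.010).

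The change of the effect with time was tested as a difference of 2 differences. Between days 14 and 4, 240 genes differed (1.69%), 128 with a higher and 112 with a lower effect on day 14. Without animal 35 the count was 175, with 106 higher and 69 lower. The hypoxia list had 16 of 31 genes and the cholesterol list 5 of 19 with a higher effect, against 0.9% of all genes. From the compared arrays alone 0 genes passed, with 1717 at an unadjusted p under 0.05. The largest were Hmox1 (4.92, adjusted p = 0.011), Hk2 (4.24, 0.0061), Slc2a1 (4.16, 3.9e-05) and Ropn1l (4.03, 8.1e-05). For Tek, Fam167b and Emcn the day 14 effect was not distinguished from that of day 4 (differences -1.03, -0.65 and 0.40, adjusted p = 0.11, 0.28 and 0.56).

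Between days 14 and 1, 303 genes differed (2.13%), 170 higher and 133 lower, and 69 from the compared arrays alone. Without animal 35 there were 231, with 138 higher and 93 lower. The hypoxia list had 17 and the cholesterol list 11 genes with a higher effect on day 14, against 1.2% of all genes. Fabp6 (5.08, adjusted p = 5.1e-04), Ropn1l (4.69, 1.5e-06) and the tRNA methyltransferase subunit Wdr4 (4.66, 0.0014) had the largest positive differences. Negative ones included the kinase Matk (-2.99, 0.0032), Cys1 (-2.99, 0.019) and, against day 4, Leng9 (-2.88, 0.0036). Wdr4 also differed on day 1 alone (adjusted p = 0.025).

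**Figure D4:**
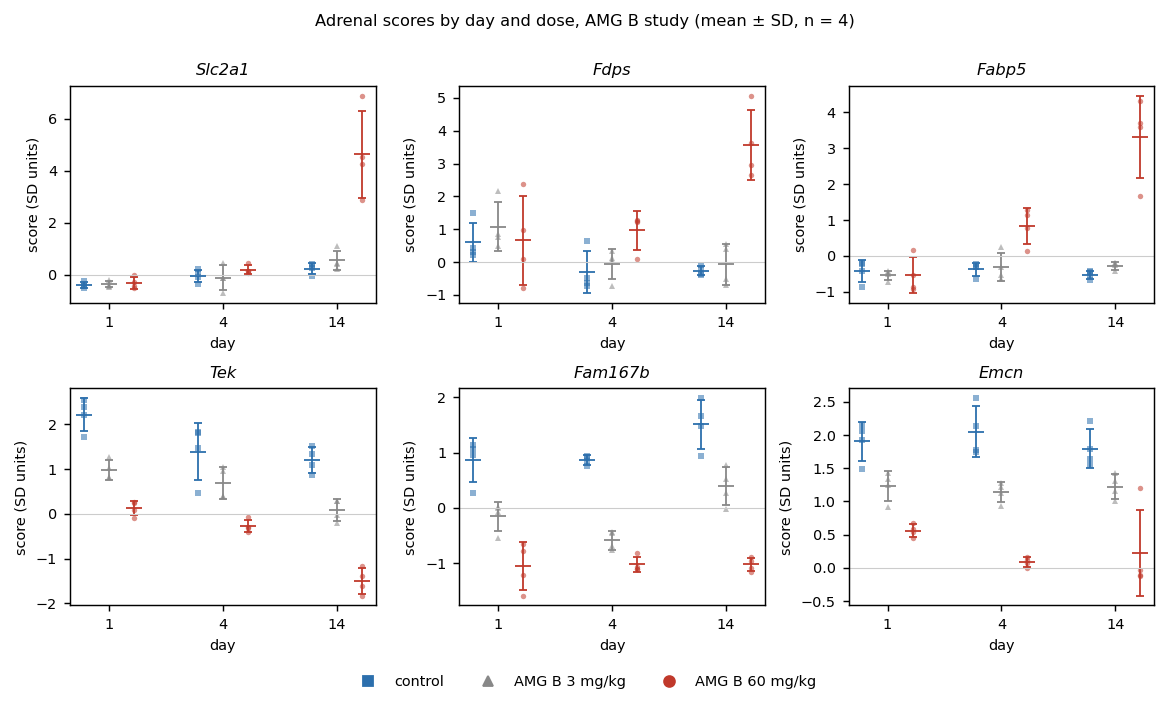
Adrenal scores (SD units) of 6 genes on days 1, 4 and 14 at 0 mg/kg (squares), 3 mg/kg (triangles) and 60 mg/kg of AMG B (circles); small symbols are animals, and bars the mean ± SD of 4. Slc2a1 stands far above the controls on day 14 alone, while Tek, Fam167b and Emcn lie below control at 60 mg/kg on all 3 days, with the 3 mg/kg mean between.

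Pancreas and liver of the same animals allowed the adrenal effect to be set against theirs. Against their own controls 23.9% of genes passed in pancreas and 2.26% in liver. The adrenal effect of 60 mg/kg minus the pancreas effect differed from 0 in 1769 genes (12.4%), 962 (6.77%) with a higher and 807 (5.68%) with a lower effect in adrenal. The adrenal minus the liver effect did so in 271 genes (1.91%), 158 (1.11%) and 113 (0.795%). With animal 35 left out of every tissue, the counts were 1510 against pancreas and 240 against liver. Of cholesterol synthesis, 14 of 19 genes had a higher effect in adrenal than in pancreas and 15 of 19 than in liver, and 0 a lower one. Fdps differed from control by 3.84 ± 0.50 in adrenal, -0.59 ± 0.33 in pancreas and -0.24 ± 0.33 in liver, and the adrenal effect was higher than that of pancreas by 4.43 (adjusted p = 3.1e-07) and than that of liver by 4.08 (6.9e-06). Mvk was called in pancreas too (1.13, adjusted p = 0.0044).

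Of the hypoxia and glycolysis genes, 7 had a higher and 2 a lower effect in adrenal than in pancreas, and 8 a higher effect than in liver. Slc2a1 differed from control by -1.06 in pancreas and 0.36 in liver, and the adrenal effect exceeded these by 5.45 (adjusted p = 4.9e-06) and 4.03 (6.9e-04). Ropn1l in adrenal exceeded pancreas by 5.44 and liver by 5.16 (adjusted p = 2.5e-06 and 2.3e-05), and Fabp6 exceeded liver by 4.66 (3.4e-05). Gys1 rose in both adrenal (2.90) and pancreas (2.58, adjusted p = 0.0010). Svs5 exceeded pancreas by 5.20 (4.1e-04), and the surface antigen Psca exceeded liver by 4.30 (6.0e-04) with an adrenal difference of 2.62 ± 0.39.

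Some vessel genes also fell in other tissues. Of 25 endothelial genes, 5 were lower in adrenal, where 4.59% of all genes were lower, 4 in pancreas, where 12.1% were, and 0 in liver, where 1.29% were. Of 6 angiopoietin and Tie genes, 2, 2 and 0 were lower in these tissues. Tek differed from control by -2.70 in adrenal, -1.62 in pancreas (adjusted p = 2.4e-04) and -1.03 in liver (0.073), and adrenal minus liver was -1.66 (0.036), while adrenal minus pancreas, -1.08, did not pass (0.098). Fam167b differed by -2.54, -1.30 and -1.62 in adrenal, pancreas and liver, all passing. Kdr, which did not pass in adrenal, fell by 0.73 in pancreas (0.0063) and by 1.08 in liver (9.9e-04), and the adrenal effect was distinguished from that of liver (1.05, 0.040) but not from that of pancreas (0.69, 0.098). Its control means were -0.96 in adrenal, 0.23 in pancreas and 1.65 in liver. The adrenal score was thus the lowest of the 3 tissues already in controls, and whether a fall there would show on this scale was not tested.

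Some differences between tissues lay in the other tissue. The aryl hydrocarbon receptor target Cyp1a1 differed by -0.01 in adrenal and 4.72 in liver (difference of effects -4.73, adjusted p = 4.7e-16). In pancreas the neurotensin receptor Ntsr1 fell by 4.32, and Tspan1 and N4bp2l1 rose by 4.49 and 4.83, where adrenal differed by 0.91, -0.58 and -0.09. Hibadh fell in adrenal (-2.52) and pancreas (-2.04) and differed by 1.28 in liver (adjusted p = 0.25). Adrenal and liver effects of this gene differed by -3.80 (0.0017).

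**Figure D5:**
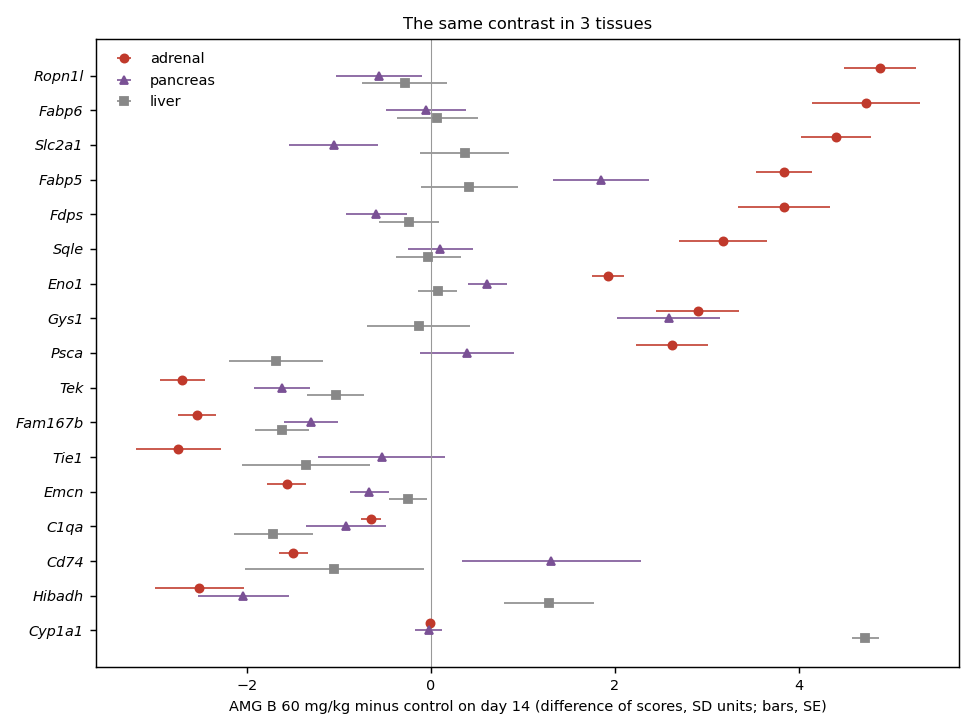
Difference of scores between AMG B 60 mg/kg and control on day 14 (SD units, bars are SE) for 17 genes in adrenal (circles), pancreas (triangles) and liver (squares) of the same animals. Ropn1l, Fabp6, Slc2a1, Fdps and Sqle lie far right of 0 in adrenal alone, Tek and Fam167b lie left of 0 in all 3 tissues, and Cyp1a1 lies right of 0 in liver alone.

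AMG A, the other code-named compound of the series, was given at 30 mg/kg, so its adrenals on day 14 are not at a matched dose. There 0 of 14217 genes passed in limma's test, with 847 at an unadjusted p under 0.05. The differences from their own controls at 60 mg/kg of AMG B and at 30 mg/kg of AMG A were -2.70 and -0.78 for Tek, -2.54 and -0.50 for Fam167b, 4.40 and -0.10 for Slc2a1, and 3.84 and 0.81 for Fdps.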

How the data were processed

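Adrenal, pancreas and liver of rats were measured on microarrays from total RNA (5 ug, one-cycle biotin labelling, per the labels' protocols). The deposited values are scores, which the authors standardised per probe set: over all arrays that carry it, the median probe set had a mean of 0.00336 and an SD of 1.01, and scores ran from -9.50 to 11.9. How the scans were summarised and normalised first is not given in these sources. Since the scores are not log2 intensities, limma was run on the scores as deposited and no fold change is given. Another deposited table was read only to check the standardisation (15866 probe sets in both).

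Of 31042 probe sets, 20826 had 1 gene symbol, 436 several and 9780 none. For the 4525 of 14217 genes with several probe sets, the one whose variance lay most between tissues was kept, and their mean was an alternative. Groups came from titles (tissue, compound, dose, day, animal). The model (limma 3.58.1 and data.table version 1.17.8 in R 4.3.3) had 1 mean for each of 12 adrenal groups over 48 arrays, with eBayes and Benjamini-Hochberg adjustment over all genes at 0.05. Tissue comparisons used 36 day 14 arrays. Tables and plots used Python 3.11.15, pandas 2.3.3, numpy 2.4.6 and matplotlib 3.10.9. On simulated scores for the 60 mg/kg against control comparison (14217 genes), 93 of 100 genes shifted by 4 residual SD and 20 of 100 shifted by 2 were recovered, with 10 false calls. The simulated noise was normal, independent and of the same spread in every array of a gene. It held no array like that of animal 35, so it does not give the error rate of the real data.

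The same animals gave the 3 tissues, so animal number pairs them. Deviations of the same animal correlated at a median of 0.029 between adrenal and pancreas (-0.0090 between different animals) and 0.055 between adrenal and liver (-0.019), for 12 animals. Alternatives were array weights, scaling, quantile normalisation, robust eBayes, a filter (4 or more compared arrays above the array's 40th percentile), fewer arrays in the fit and leaving out each animal. Named genes were those with the largest differences past the threshold in each direction and list members. The members and lists were chosen with earlier results of these data known, and further genes after their values were seen. Promoters are RefSeq's (GRCr8).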

Additional observations from a re-analysis of the deposited data

Results flagged for a closer look

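In 310 groups of 4 adrenals (155 genes, 60 mg/kg and controls), 39 values lay apart from their group by a gap to the nearest animal that took up most of the group's range (Dixon's criterion for 4 values). Some of these genes were named because animal 35 stood apart in them, and others after their values were seen, so neither the number of such values nor the animals they belong to can be read against the 1 in 20 groups that chance marks.

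Animal 35 lay high among treated glands for the chromaffin genes Penk (5.50) and Ret (2.43), for the vascular genes Nrp1 (3.49), Tie1 (0.17), Emcn (1.20), Pecam1 (2.92), Eng (1.46) and Esam (1.96), and for the myeloid genes Mrc1 (0.97), Lyz2 (2.40), Tyrobp (0.95) and Clec10a (1.46). It also lay high for Timp1 (10.77), Testin (10.71), Tnc (9.60), Il1r2 (9.70), S100a9 (9.40), Col1a1 (4.65), Col3a1 (4.68) and the calmodulin-like Calml4 (1.56). It lay low for Kdr (-1.17), Wdr62 (-5.77) and Prkcz (-5.36), and stood apart for the respiratory chain gene Sdha (0.45). Animal 33 stood apart for Mvd (0.99) and Aacs (1.52), where it was low, and for Eno2 (8.72) and Fabp6 (7.33), where it was high.

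Among controls, animal 28 stood apart for Dhcr7 (1.00), Clec10a (0.39), Fabp6 (0.012), Leng9 (0.63) and Gdf15 (2.44). Animal 26 did so for Dab2 (1.83), Penk (-0.37) and Ropn1l (-0.74), animal 27 for Pnmt (1.79) and Slc16a3 (-0.25), and animal 25 for P4ha1 (-0.31).

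The effect of 60 mg/kg differed between days 14 and 4 in 240 genes and between days 14 and 1 in 303. Against day 4 the day 14 effect differed by 4.92 for Hmox1, 4.24 for Hk2, 4.16 for Slc2a1, 4.03 for Ropn1l, -2.88 for Leng9 and -2.69 for Arr3. Against day 1 it differed by 5.08 for Fabp6, 4.69 for Ropn1l, 4.66 for Wdr4, 4.42 for Hmox1, -3.56 for Eps8l1, -3.25 for Arr3, -2.99 for Matk and -2.99 for Cys1. All these values include animal 35, and Arr3 was among the genes in which that animal lay furthest below the other treated glands.

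The adrenal effect differed from that of pancreas in 1769 genes and from that of liver in 271. Adrenal minus pancreas was 5.45 for Slc2a1, 5.44 for Ropn1l, 5.24 for Ntsr1, 5.20 for Svs5, -5.07 for Tspan1 and -4.92 for N4bp2l1. Adrenal minus liver was 5.16 for Ropn1l, 4.66 for Fabp6, 4.30 for Psca, 4.08 for Fdps, -4.73 for Cyp1a1 and -3.80 for Hibadh. Adjusted p-values of these single genes in limma's test were at most 0.039. Outside the gene-level tests, 202 probe sets with no gene symbol passed.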

How the results depend on the processing

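The count of genes between 60 mg/kg and control adrenals stayed within 1.5 times of 1295 under array weights (1138), the filter (1031 of 8923), the mean of the probe sets (1279), AMG B arrays only (1204), quantile normalisation (1029) and robust eBayes (1285). With each array centred and scaled it was 1406, with 819 higher and 587 lower. From the 8 compared arrays it was 158, and 320 without animal 35 as well, an alternative chosen after seeing the data. Fewer arrays then estimate the spread. The cause of these lower counts, and of the other shifts below, was not tested. Leaving out 1 animal gave 870 to 1485.

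Against 3 mg/kg (1006), array weights gave 622, scaling 636, quantile normalisation 612 and the compared arrays alone 4, and leaving out 1 animal 744 to 1260. For day 14 minus day 4 (240), scaling gave 131, quantile normalisation 154 and the compared arrays 0 (1717 at an unadjusted p under 0.05), and leaving out 1 animal 130 (without control 15 of day 4) to 496 (without treated animal 34). For day 14 minus day 1 (303), the compared arrays gave 69 and leaving out 1 animal 185 to 457. Leaving out 1 animal gave 1147 to 1702 for adrenal minus pancreas (1769) and 160 to 289 for adrenal minus liver (271), which quantile normalisation moved to 548.

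With the animal as a replicate block the tissue counts were 1871 for pancreas and 291 for liver, and among named genes the block changed the call of Klrb1c (0.055 without and 0.048 with the block) and Hmox1 (0.053 and 0.045) for liver and Nsdhl (0.055 and 0.049) for pancreas, and no other.

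Of 116 called genes, 104 stayed called with array weights, 105 with scaling, 97 of 97 with the filter, 110 with mean probe sets, 102 with AMG B arrays only, 99 with quantile normalisation, 116 with robust eBayes and 95 to 111 when 1 animal was left out, fewest without animal 35. None reversed under these settings. Genes that reversed had not passed. With scaling their differences were Dhcr7 -0.042, Star -0.073, Hsd3b1 -0.13, Kdr 0.094 and Cyp1a1 0.032, with quantile normalisation Hsd3b1 -0.039, Kdr 0.00020 and Cyp1a1 0.0053, with array weights Dbh 0.0089, Chga 0.10, Kdr 0.0061, Pecam1 -0.063 and Wdr62 0.18 and with mean probe sets Srebf2 -0.087 and Flt1 -0.055. From the compared arrays without animal 35 they were Dbh 0.11, Chga 0.21, Chgb 0.068, Kdr 0.019, Pecam1 -0.24, Tnc -0.26, Wdr62 0.58, Prkcz 0.16, Col1a1 -0.20 and Col3a1 -0.36. Leaving out 1 animal gave differences of -0.053 to 0.28 for Dhcr7, -0.31 to 0.35 for Srebf2, -0.025 to 0.047 for Hsd3b1, -0.30 to 0.0026 for Nr5a1, -0.097 to 1.08 for Pnmt, -0.40 to 0.11 for Dbh, -0.45 to 0.21 for Chga, -0.41 to 0.068 for Chgb, -0.065 to 0.019 for Kdr, -0.23 to 0.33 for Flt1, -0.24 to 0.76 for Pecam1, -0.75 to 0.13 for Eng, -0.26 to 3.14 for Tnc, -1.53 to 0.58 for Wdr62, -1.999 to 0.16 for Prkcz, -0.20 to 1.57 for Col1a1 and -0.36 to 1.65 for Col3a1, each range crossing 0. A pseudocount was not run, since scores are not on a log scale. The scores hold no signal over background, and what limits the calls was not tested.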

Other observations

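Of the 9780 probe sets with no gene symbol, 202 (2.07%) passed the same test between 60 mg/kg and control adrenals, 109 higher and 93 lower. Probe set 1378569_at scored -0.82, -1.19, -1.13 and -1.82 in treated glands and 2.16, 1.79, 2.29 and 2.11 in controls (difference -3.33 ± 0.40, adjusted p = 1.7e-06 by limma), and the groups lay far apart. Probe set 1389754_at had the largest rise, 4.59 ± 0.80 (adjusted p = 7.5e-04), with animal 35 at 9.79 and the other treated glands at 2.62, 3.20 and 1.64.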
